A study of Mus musculus with 39 samples.

Results

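The salt-inducible kinases Sik1, Sik2 and Sik3, the kinase that switches them on (Stk11, also called LKB1), and the substrates through which they act (Crtc1, Crtc2, Crtc3, Hdac4, Hdac5 and Hdac7) were followed in RNA of mouse cortical bone. Members were taken by gene symbol with no filter on measured values, though they were chosen with earlier results of these data known. The 10 genes occupied 11 of 37583 gene rows because Hdac4 had a pair of identifiers. The study sequenced RNA of femurs in 2 experiments, each with a mutant and a wild-type (WT) group of its own, 39 libraries in all. The Sik2/3 experiment comprised 8 libraries that carry the label Sik2/3 DKO, a double knockout of Sik2 and Sik3, and 8 that carry the label WT. The C1HR experiment comprised 12 libraries of mice with a Col1a1 promoter transgene for the H223R form of the parathyroid hormone receptor Pth1r, and 11 libraries of its WT mice. The promoter of type I collagen drives that transgene in bone-forming cells, and H223R is a form of the receptor that signals without hormone. The driver and the deleted exons of the Sik2 and Sik3 alleles, and the age, sex and strain of the mice, were not given in the sources used here, and neither was whether the WT mice carried any allele of their own. Sex read from Xist and the Y-linked Ddx3y gave 2 female and 6 male libraries labelled DKO and 4 of each labelled WT, and 6 of each in C1HR and 6 female and 5 male in its WT group. The labels do not say that each library came from its own animal, so p-values measure the spread between these libraries. In the Sik2/3 experiment, libraries with neighbouring numbers (1 and 2, 3 and 4, 5 and 6, 7 and 8) deviated from their group together, with correlations across genes of 0.132 to 0.508 in libraries labelled DKO and 0.554 to 0.778 in those labelled WT, so 8 libraries a group may not be 8 independent samples and these p-values may be too small. The cause was not tested, and members' calls lost when the counts of each such pair are summed are named below. Neighbouring libraries of the C1HR experiment were not checked in this way. Its p-values may therefore be too small as well.

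As background, Stk11 phosphorylates the salt-inducible kinases and so makes them active, and the active kinases phosphorylate CRTC coactivators and class IIa histone deacetylases, which are then held in the cytoplasm by 14-3-3 proteins. Parathyroid hormone acts through Pth1r, cyclic AMP and protein kinase A (PKA), which phosphorylates the salt-inducible kinases and blocks them, so that CRTC proteins can enter the nucleus to coactivate CREB and class IIa deacetylases can enter it to restrain MEF2 factors. In osteocytes this arm of the pathway is known for lowering Sost, which encodes sclerostin, and raising Tnfsf11, which encodes RANKL. All of these steps are changes of protein phosphorylation and place, and the libraries measured RNA alone.

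Reads assigned to genes numbered 22122742 to 23306853 per library labelled DKO and 20324595 to 24922490 per library labelled WT, and 14909609 to 16370874 per C1HR library and 11444686 to 13475805 per library of its WT group. Over the members, these depths gave 37 to 3813 reads per gene and library. Levels are given as CPM, read counts scaled to a common library size, with TMM scaling within each experiment, so a level in one experiment is not on quite the same scale as a level in the other. Neither experiment had groups alike in the RNA of cell-type markers. The sources differ on whether the C1HR bones were flushed, as given under the processing of the data. Summed CPM of 14 erythroid markers lay at 3419 to 10100 in the libraries labelled DKO and at 154 to 4995 in those labelled WT, and at 292 to 9982 in C1HR and 19840 to 39540 in its WT group. Summed CPM of 15 granulocyte markers lay at 10230 to 25790 in libraries labelled DKO and at 907 to 16490 in those labelled WT, and at 266 to 5909 in C1HR and 13940 to 20740 in its WT group. For 13 osteoblast markers, which check the labelled tissue, the sums were 73490 to 202600 in libraries labelled DKO and 88480 to 265600 in those labelled WT, and 256600 to 446900 in C1HR and 55010 to 99780 in its WT group. For 13 osteoclast markers they were 4417 to 9713 in libraries labelled DKO and 5206 to 33610 in those labelled WT, and 11460 to 20430 in C1HR and 4439 to 6059 in its WT group. B-lineage sums (14 markers) were 315 to 548 in libraries labelled DKO and 53 to 284 in those labelled WT, and 112 to 320 in C1HR and 514 to 731 in its WT group. No marker of these lists was at 0 in every library of a group. In such bulk RNA, fewer cells of a type and less RNA per cell cannot be told apart. The libraries labelled WT 5 and 6 held the highest erythroid sums of their group, at 4995 and 2315 CPM, and lay nearest the DKO libraries on the first principal component of that experiment. They also held the highest sums of their group for 11 skeletal muscle markers, 12300 and 39510 CPM, and for 8 adipocyte markers, 476 and 290 CPM. C1HR 8 and 9 likewise held the highest erythroid sums of C1HR, at 9982 and 8466 CPM. The part of these marrow lineages in the results below was not tested beyond a fit that takes their marker levels as covariates. In C1HR and its WT group the erythroid, granulocyte and B-lineage sums did not overlap, so that fit cannot separate genotype from these levels. For the DKO label the B-lineage sums did not overlap either. Osteoblast, osteoclast and osteocyte markers were not covariates, and their sums did not overlap between C1HR and its WT group. Sums of 11 osteocyte markers were 2086 to 3283 CPM in C1HR and 396 to 724 CPM in its WT group. They were 1297 to 7980 CPM in libraries labelled DKO and 2552 to 4823 CPM in those labelled WT. Muscle and adipocyte markers were not covariates either. A call kept or lost in that fit therefore does not tell genotype from cell makeup.

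Sik2 and Sik3, the genes named by the knockout, did not check the label at the level of whole-gene counts. Sik2 was higher in the libraries labelled DKO than in those labelled WT, and Sik3 did not differ past the test. The deposited counts add all exons of a gene, and loss of 1 or a few exons of a transcript that is still made cannot be seen in them, so the libraries of that experiment are called by their labels throughout. Among readouts of the pathway, Sost was higher and Tnfsf11 was lower in libraries labelled DKO, as given below. Both run opposite to the direction stated above for blocked kinases, and why was not tested. In C1HR, Tnfsf11 was higher and Sost did not pass in either direction.

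In C1HR against its WT, 8 members were higher (Sik1, Sik3, Crtc1, Crtc2, Crtc3, Hdac4, Hdac5 and Hdac7) and 2 were lower (Sik2 and Stk11), so 10 of 10 passed an adjusted p of 0.05 in edgeR's quasi-likelihood test with Benjamini-Hochberg adjustment over all genes tested. In that comparison 84.3% of all genes tested passed, 43.7% higher and 40.6% lower, so a full count of called members is close to the background. In libraries labelled DKO against labelled WT, 4 of 10 members passed, Sik2, Crtc2 and Stk11 higher and Crtc1 lower, where 55% of all genes tested passed, 24.1% higher and 30.9% lower. The median log2 fold change of the members was 0.52 in C1HR, against 0.05 over all genes, and -0.18 in libraries labelled DKO, against -0.09 over all genes. The levels of the groups did not overlap for 4 of 10 members in the C1HR comparison (Sik3, Crtc1, Hdac5 and Stk11), with 52.8% of all genes in the background, and for 0 of 10 in the DKO comparison, with 10% in the background. Scaling by library totals in place of TMM moved the median of all genes to -0.35 in C1HR and to 0.12 in libraries labelled DKO. Under it the split of called members was 4 higher and 3 lower in C1HR, and 4 higher and 0 lower in libraries labelled DKO. All genes called under it split 4321 higher and 7698 lower in C1HR, and 5270 higher and 2697 lower in libraries labelled DKO.

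**Figure D1:**
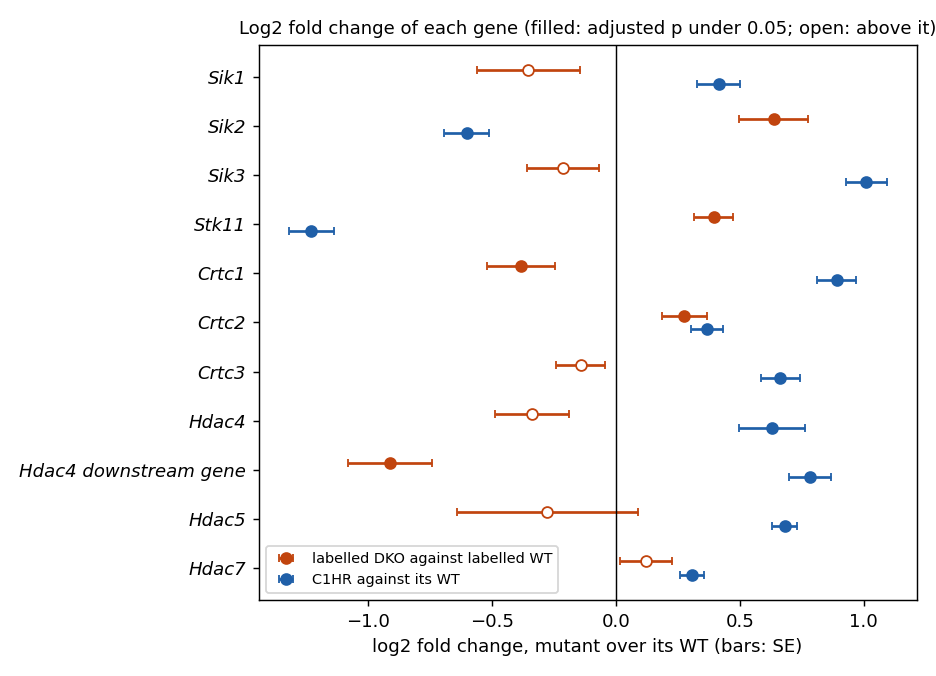
Log2 fold change of each gene, libraries labelled DKO over labelled WT (orange) and C1HR over its WT (blue), with bars of 1 SE; filled points passed an adjusted p of 0.05 in edgeR's quasi-likelihood test. Sik2 and Stk11 lie to the right of 0 in libraries labelled DKO and to the left in C1HR, and Crtc1 lies the other way round.

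The effect of C1HR less that of the DKO label was tested as a contrast in 1 fit of all 4 groups. For 8 of 10 members the difference passed the edgeR test, 6 with a positive and 2 with a negative sign, and 80.2% of all genes tested passed it, 42% with a positive and 38.1% with a negative sign. Stk11 had the most negative difference, -1.69 ± 0.12 on the log2 scale (SE, adjusted p = 4.59e-15), and Sik2 followed at -1.30 ± 0.16 (adjusted p = 1.6e-09). Crtc1 (1.21 ± 0.15) and Sik3 (1.16 ± 0.16) had the most positive ones, with adjusted p of 3.18e-09 and 2.21e-08 in the edgeR test. For Crtc2 (0.03 ± 0.11) and Hdac7 (0.13 ± 0.10) the difference did not pass, with adjusted p of 0.793 and 0.265, and both turned negative with totals scaling, to -0.54 and -0.46. The experiments were separate and had separate WT groups, so a difference between the genotypes and a difference between the experiments cannot be told apart.

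CREB binds the sequence TGACGTCA and its shorter form TGACG, so the promoter windows of the members were read for both, on both strands. RefSeq windows on GRCm38.p6, each 250 bases before to 50 bases after a gene's start, were matched for 8 of 10 members, 11 windows in all, while Sik1 and Crtc2 had no entry. TGACG occurred 3 times in the windows of Sik3 and Hdac4, 2 times in those of Sik2 and Hdac5 and 1 time in that of Stk11, and in none of the windows of Crtc1, Crtc3 and Hdac7. Of 32851 windows of the same length, 20.81% held TGACG at least 1 time and 5.014% held it 2 or more times. The member windows with a match were 60.67% to 80% G and C, and the 32851 windows were not matched for that content. These shares are therefore no test of enrichment. TGACGTCA was in no member window and in 1.79% of all windows. The 4 windows with 2 or more matches are shown because their genes behaved differently in C1HR, with Sik3, Hdac4 and Hdac5 higher and Sik2 lower; all read 5′ to 3′ on the strand of the gene, and capitals mark TGACG or its reverse complement CGTCA. Sik2 lies at chr9:51009024-51009323 on the minus strand, Sik3 at chr9:46012570-46012869 on the plus strand, and Hdac4 at chr1:92180292-92180591 and Hdac5 at chr11:102230123-102230422 on the minus strand.
Sik2: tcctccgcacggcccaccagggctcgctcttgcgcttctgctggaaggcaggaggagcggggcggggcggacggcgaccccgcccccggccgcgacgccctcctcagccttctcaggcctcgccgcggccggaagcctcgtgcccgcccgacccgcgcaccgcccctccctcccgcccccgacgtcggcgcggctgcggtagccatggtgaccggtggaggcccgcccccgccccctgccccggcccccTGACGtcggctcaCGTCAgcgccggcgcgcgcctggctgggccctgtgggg
Sik3: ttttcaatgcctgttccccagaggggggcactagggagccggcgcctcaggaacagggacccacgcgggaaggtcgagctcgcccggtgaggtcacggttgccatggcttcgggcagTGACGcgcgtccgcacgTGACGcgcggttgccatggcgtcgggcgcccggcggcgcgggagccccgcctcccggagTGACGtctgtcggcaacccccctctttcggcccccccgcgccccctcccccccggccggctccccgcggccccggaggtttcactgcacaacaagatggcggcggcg
Hdac4: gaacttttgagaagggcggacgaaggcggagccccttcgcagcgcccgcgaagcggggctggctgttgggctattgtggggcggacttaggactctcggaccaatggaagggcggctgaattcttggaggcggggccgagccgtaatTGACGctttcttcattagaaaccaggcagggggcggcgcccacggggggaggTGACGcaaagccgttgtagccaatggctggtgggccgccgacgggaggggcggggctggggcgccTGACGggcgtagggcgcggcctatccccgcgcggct
Hdac5: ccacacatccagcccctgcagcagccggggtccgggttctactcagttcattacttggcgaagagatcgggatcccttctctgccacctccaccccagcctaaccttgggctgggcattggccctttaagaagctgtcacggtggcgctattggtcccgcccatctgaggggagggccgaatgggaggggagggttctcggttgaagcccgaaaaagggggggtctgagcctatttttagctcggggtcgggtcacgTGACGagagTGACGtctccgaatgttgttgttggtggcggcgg
A match describes these letters and is not a binding site. In the Sik2 window both matches lie at the start itself, at positions -1 and 13, while those of Sik3 lie upstream, at -133, -116 and -57, counted from 1 at the first transcribed base to the first base of the match.

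Sik1, the salt-inducible kinase that cyclic AMP is known to induce as a transcript, was higher in C1HR (ENSMUSG00000024042, mm9 chr17:31981193-31992737, minus strand). Its lowest, median and highest levels were 22.2, 30.2 and 38.6 CPM in C1HR and 21.1, 22.9 and 26.3 CPM in its WT group. This gave a log2 fold change of 0.42 ± 0.09 (SE; adjusted p = 9.7e-05 in edgeR), and 10 of 12 C1HR libraries were above every WT library, so the groups overlapped through 2 of them. With totals scaling the C1HR value no longer passed the edgeR test (8.42e-05 on the log2 scale, adjusted p = 0.999), under the shift of all genes given above, and with marrow marker covariates it was 0.53 (adjusted p = 0.051). In the Sik2/3 experiment Sik1 lay at 38.03, 50.7 and 68.6 CPM in libraries labelled DKO and at 39.04, 62.1 and 111.1 CPM in those labelled WT. The groups overlapped almost wholly, with the high WT values in the libraries labelled WT 1 (111.1 CPM) and WT 2 (107.9 CPM). The log2 fold change of -0.35 ± 0.21 did not pass the edgeR test (adjusted p = 0.161), though it did without WT 5 and 6 (-0.48, adjusted p = 0.039) and with sex as a covariate (-0.45, adjusted p = 0.0479). With marrow marker covariates it turned to 0.52 (adjusted p = 0.261).

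Sik2 was higher in libraries labelled DKO and lower in C1HR (ENSMUSG00000037112, chr9:50700917-50817178, minus strand). The libraries labelled DKO had 21.3, 20.3, 38.1, 35.6, 33.6, 30.2, 25.9 and 32.6 CPM in the order of their numbers, and those labelled WT had 20.3, 16.9, 18.96, 16.2, 15.7, 20.9, 25.5 and 18.3 CPM. The 6 libraries labelled DKO 3 to 8 lay above every library labelled WT, and DKO 1 and 2 lay inside the WT range. Sik2 had a log2 fold change of 0.64 ± 0.14 (SE, n = 8 each, edgeR adjusted p = 0.00127), and it stayed past the test when any 1 library was left out (0.58 to 0.71). With marrow marker levels as covariates it was 0.61 and no longer past the test (adjusted p = 0.12). In C1HR the lowest, median and highest levels of Sik2 were 10.5, 12.7 and 18.2 CPM, against 18.2, 20.1 and 23.7 CPM in its WT group. Every C1HR library but C1HR 9 lay below all WT libraries, and the log2 fold change was -0.60 ± 0.09 (edgeR adjusted p = 1.47e-06). The highest C1HR values, 17.1 and 18.2 CPM, were in C1HR 8 and 9, the libraries with the highest erythroid sums. Without both, the log2 fold change was -0.82, and with marrow marker levels as covariates it was -0.18 and not past the test (adjusted p = 0.54). Exons of Sik2 share 578 bases, 16.2% of its exon bases, with Ppp2r1b on the other strand, which encodes a scaffold subunit of protein phosphatase 2A. In counting without strand, reads from the shared bases go to neither gene. Ppp2r1b moved as Sik2 did, with 69.1 to 107.1 CPM in libraries labelled DKO and 47.5 to 53.8 CPM in those labelled WT, and 33.3 to 80.0 CPM in C1HR and 109.3 to 152.5 CPM in its WT group. Its log2 fold changes were 0.76 ± 0.08 and -1.50 ± 0.12 (edgeR adjusted p = 9.72e-06 and 1.02e-11), and its groups did not overlap in either experiment. With marrow marker covariates its C1HR value was -0.59 (adjusted p = 0.0149).

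Sik3, the other gene of the double knockout, was higher in C1HR without overlap of the groups and did not pass the test for the DKO label (ENSMUSG00000034135, chr9:45820903-46032277, plus strand). Its lowest, median and highest levels were 67.5, 88.1 and 111.6 CPM in C1HR and 37.01, 43.7 and 52.4 CPM in its WT group. All 12 C1HR libraries lay above all 11 WT libraries, and the log2 fold change was 1.01 ± 0.08 (SE, edgeR adjusted p = 2.04e-11). With marrow marker levels as covariates it was 0.89 ± 0.20 (adjusted p = 0.0011), in a fit that cannot separate genotype from these levels. The libraries labelled DKO had 95.4, 124.9, 81.2, 80.4, 83.7, 90.2, 82.8 and 81.5 CPM in number order, and those labelled WT had 111.0, 110.8, 133.6, 129.4, 72.9, 122.0, 84.4 and 69.6 CPM. The WT values spread on both sides of the DKO values. Sik3 had a log2 fold change there of -0.21 ± 0.14 (adjusted p = 0.223), and with totals scaling or marrow marker covariates its sign turned to 0.0071 and 0.08. The libraries labelled DKO 1 and 2 were the highest 2 of their group for Sik1 (68.6 and 68.5 CPM) and Sik3, and the lowest 2 for Sik2.

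Stk11, the upstream kinase, went the way of Sik2 (ENSMUSG00000003068, chr10:79578548-79593427, plus strand). In C1HR its lowest, median and highest levels were 60.2, 72.5 and 114.1 CPM, against 149.1, 180.7 and 193.1 CPM in its WT group. The groups did not overlap, and the log2 fold change of -1.23 ± 0.09 (adjusted p = 4.66e-12 in edgeR) was the most negative of the members. The 2 highest C1HR values, 106.6 and 114.1 CPM, were again those of C1HR 8 and 9. Without both the log2 fold change was -1.48, and with marrow marker covariates it was -0.58 and still past the test (adjusted p = 0.0032). In the Sik2/3 experiment it lay at 100.9, 125.5 and 149.8 CPM in libraries labelled DKO and at 84.2, 96.6 and 107.3 CPM in those labelled WT. The groups overlapped through 1 library labelled DKO, number 7, and the log2 fold change was 0.39 ± 0.08 (edgeR adjusted p = 0.000591). With marrow marker covariates it was 0.28 (adjusted p = 0.19). Exons of Stk11 share 232 bases (5.07%) with Dos, a gene on the other strand that moved the other way in C1HR (log2 fold change 1.62 ± 0.14, adjusted p = 3.96e-11).

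**Figure D2:**
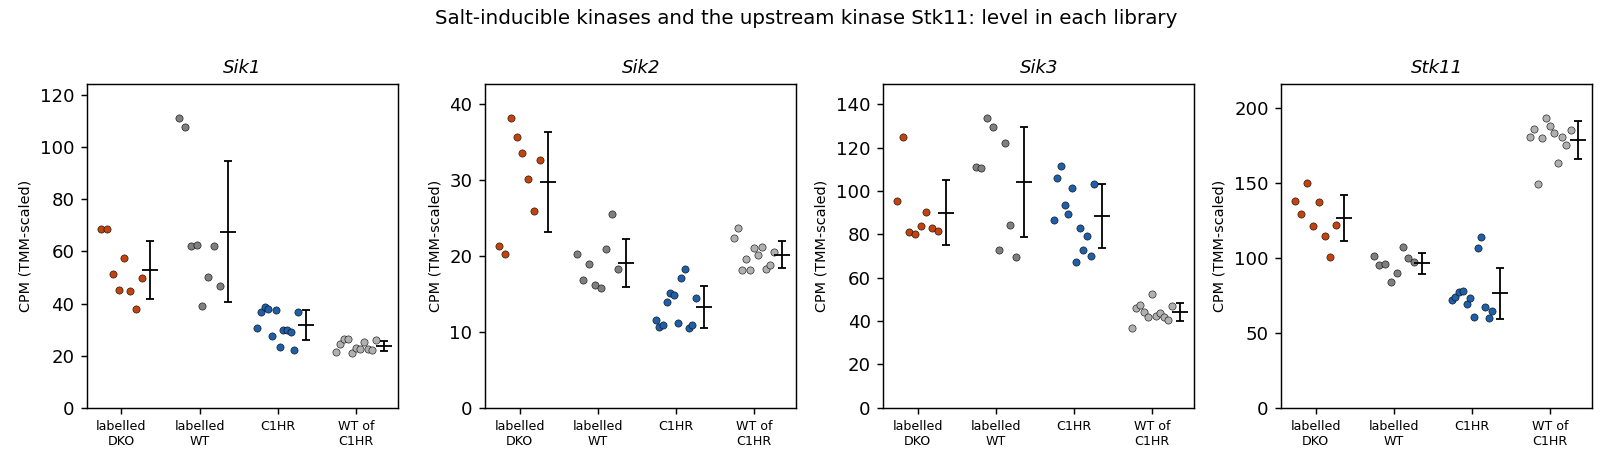
CPM of Sik1, Sik2, Sik3 and Stk11 in each library (points, in the order of their numbers) with the mean and SD of each group beside them, for libraries labelled DKO, labelled WT, C1HR and its WT. Sik3 in C1HR sits wholly above its WT group, Stk11 wholly below it, and 6 of 8 libraries labelled DKO sit above every library labelled WT for Sik2.

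Of the CRTC coactivators of CREB, Crtc1 was lower in libraries labelled DKO and higher in C1HR (ENSMUSG00000003575, chr8:72906254-72963478, minus strand). Its lowest, median and highest levels were 27.7, 34.5 and 38.3 CPM in libraries labelled DKO and 24.6, 47.9 and 54.2 CPM in those labelled WT. The library labelled WT 5 was the only WT library below the DKO range, WT 6 (35.4 CPM) lay within it, and the other WT libraries lay above it. The log2 fold change of -0.38 ± 0.14 passed narrowly (SE, edgeR adjusted p = 0.0265). It missed the test without any 1 of DKO 1, WT 1, WT 2, WT 3 or WT 4 (adjusted p = 0.0513 to 0.062), with totals scaling (-0.15, adjusted p = 0.262), without DKO 1 and 2 together (-0.35, adjusted p = 0.069) and with neighbouring libraries summed (-0.38, adjusted p = 0.139), and turned to 0.38 with marrow marker covariates (adjusted p = 0.0549). In C1HR it lay at 27.6, 37.5 and 46.2 CPM, against 17.7, 19.6 and 21.9 CPM in its WT group. Those groups did not overlap, with a log2 fold change of 0.89 ± 0.08 (edgeR adjusted p = 1.11e-10).

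With TMM scaling, Crtc2 was the only member higher past the test in both comparisons (ENSMUSG00000027936, chr3:90058085-90068047, plus strand). Libraries labelled DKO had 62.4, 71.7 and 84.4 CPM as the lowest, median and highest value, against 40.6, 60.6 and 67.2 CPM in those labelled WT. The log2 fold change was 0.28 ± 0.09 (edgeR adjusted p = 0.0161), 6 of 8 libraries labelled DKO lay above every library labelled WT, and the lowest value was that of WT 5. C1HR had 35.8, 41.2 and 53.0 CPM, against 28.7, 31.9 and 37.6 CPM in its WT group. That log2 fold change was 0.37 ± 0.06 (edgeR adjusted p = 1.03e-05), with 10 of 12 C1HR libraries above every WT library. With totals scaling the C1HR value was -0.04 and not past the test (adjusted p = 0.447), and with marrow marker covariates neither value passed, at 0.51 in libraries labelled DKO (adjusted p = 0.0507) and 0.14 in C1HR (adjusted p = 0.516). Without DKO 1 and 2 the value for the DKO label was 0.23 (adjusted p = 0.059), and with neighbouring libraries summed it was 0.28 (adjusted p = 0.0875).

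Crtc3 was higher in C1HR (ENSMUSG00000030527, chr7:87731513-87833763, minus strand). Its lowest, median and highest levels were 27.7, 38.8 and 46.9 CPM in C1HR and 20.0, 24.6 and 29.98 CPM in its WT group. Of 12 C1HR libraries 11 lay above every WT library, and the log2 fold change was 0.66 ± 0.08 (edgeR adjusted p = 2.14e-08). It lay at 32.5, 35.9 and 40.0 CPM in libraries labelled DKO and at 27.2, 42.2 and 46.9 CPM in those labelled WT, with a log2 fold change of -0.14 ± 0.10 (adjusted p = 0.236). The DKO range lay inside the WT range, whose low end was WT 5 (27.2 CPM) and WT 6 (31.97 CPM). Without those 2 libraries the value was -0.23 and passed the edgeR test (adjusted p = 0.0014), and it turned to 0.31 with marrow marker covariates (adjusted p = 0.115) and to 0.09 with totals scaling (adjusted p = 0.4).

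**Figure D3:**
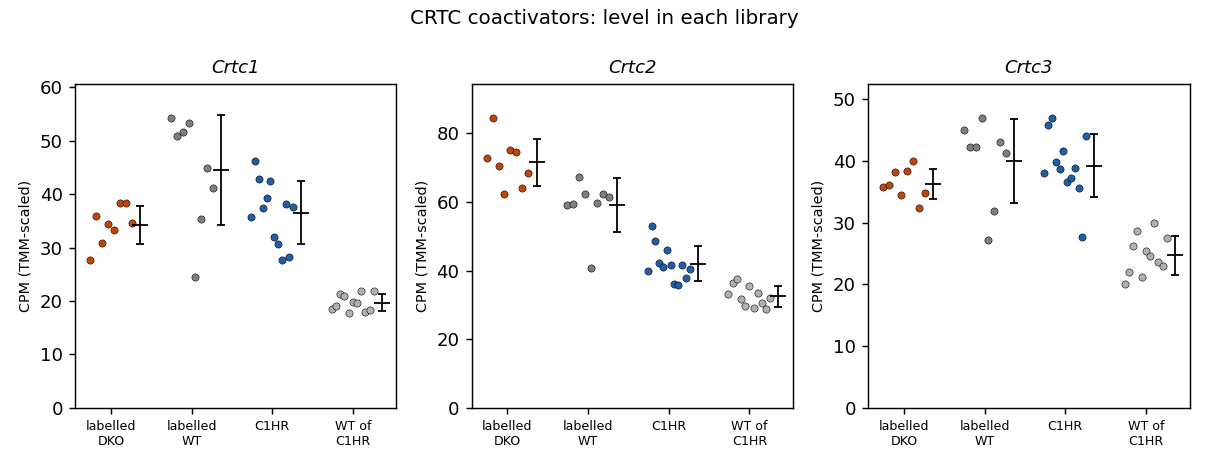
CPM of Crtc1, Crtc2 and Crtc3 in each library (points, in the order of their numbers) with the mean and SD of each group, for libraries labelled DKO, labelled WT, C1HR and its WT. Crtc1 in C1HR sits at 27.6 to 46.2 CPM, above its WT group at 17.7 to 21.9 CPM, and the lowest library labelled WT is number 5 in all 3 panels.

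The class IIa deacetylase Hdac4 had 2 gene identifiers. The spliced gene (ENSMUSG00000026313) spans mm9 chr1:93829334-94044970 on the minus strand, and the other (ENSMUSG00000073617) is a single exon of 2392 bases at chr1:93825362-93827753 on the same strand, 1580 bases downstream of it. The spliced gene stands for Hdac4 in the counts of members. It lay at 6.17, 9.12 and 12.6 CPM (lowest, median and highest) in C1HR and at 2.85, 6.42 and 8.06 CPM in its WT group, at a log2 fold change of 0.63 ± 0.13 (adjusted p = 0.000117 in edgeR). The groups overlapped, with 8 of 12 C1HR libraries above every WT library. With totals scaling the value was 0.22 (adjusted p = 0.13) and with marrow marker covariates 0.74 (adjusted p = 0.068), neither past the test. It lay at 9.88, 15.2 and 18.1 CPM in libraries labelled DKO and at 12.1, 19.01 and 22.9 CPM in those labelled WT, with a log2 fold change of -0.34 ± 0.15 that did not pass (adjusted p = 0.0663; -0.10 with marrow marker covariates and -0.11 with totals scaling), but did without DKO 3 (adjusted p = 0.0489) or without WT 5 (adjusted p = 0.017). The long noncoding gene Gm17418 shares 132 of its exon bases (3.23%) on the other strand and had 0 to 3 reads per library.

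The downstream single exon passed in both comparisons, in opposite directions. It lay at 11.3, 14.3 and 19.2 CPM in libraries labelled DKO and at 18.1, 25.7 and 39.4 CPM in those labelled WT. Of 8 libraries labelled DKO 7 lay below every library labelled WT, and the log2 fold change was -0.91 ± 0.17 (edgeR adjusted p = 0.000369), or -0.29 with marrow marker covariates (adjusted p = 0.28). In C1HR it lay at 10.6, 13.3 and 16.9 CPM, against 5.49, 7.93 and 8.69 CPM in its WT group, without overlap and with a log2 fold change of 0.78 ± 0.09 (adjusted p = 5.28e-09). As CPM per kilobase within a library, the downstream exon over the spliced gene had a median log2 ratio of 0.53 in libraries labelled DKO and 1.43 in those labelled WT, and 5 of 8 libraries labelled DKO had a ratio below every library labelled WT. The same median was 1.34 in C1HR and 1.05 in its WT group, where the groups overlapped.

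Hdac5 split the libraries labelled DKO (ENSMUSG00000008855, chr11:102055746-102091480, minus strand). Those labelled DKO 1 and DKO 2 had 20.4 and 17.5 CPM, from 492 and 433 reads, and those labelled DKO 3 to 8 had 117.5, 112.4, 120.7, 117.4, 119.8 and 111.1 CPM. The libraries labelled WT had 96.3, 85.8, 89.8, 83.8, 81.3, 123.8, 173.3 and 158.5 CPM. DKO 1 and 2 were thus below every other library of either experiment, and the WT group held its own high pair in WT 7 and WT 8. For Hdac5 the log2 fold change of -0.28 ± 0.36 did not pass the edgeR test (adjusted p = 0.537), and without DKO 1 and 2, left out after their values were seen, it was 0.06 (adjusted p = 0.776). The nearest tested genes on either side did not share the drop. G6pc3, a glucose-6-phosphatase, had 43.7 and 43.7 CPM in DKO 1 and 2 and 34.5 to 39.7 CPM in DKO 3 to 8, and BC030867 had 11.1 and 9.15 CPM in DKO 1 and 2 and 9.31 to 16.5 CPM in DKO 3 to 8. Across all 39 libraries, with each group's mean log2 CPM removed, Hdac5 was most like the predicted gene Gm6969 (Pearson r 0.953), followed by Eif5al3-ps (0.878) and Snai2 (0.846), among 11437 genes searched after the Hdac5 values were seen. These coefficients rest mostly on the gap between DKO 1 and 2 and DKO 3 to 8, since Hdac5 varied far less within the other groups. Gm6969 had 0.664 and 0.526 CPM in DKO 1 and 2 and 11.2 to 17.1 CPM in DKO 3 to 8, while all 8 libraries labelled WT had 0.602 to 1.37 CPM. C1HR and its WT group held it at 16.8 to 24.8 and 14.7 to 25.2 CPM. For Gm6969, then, DKO 1 and 2 lay with the libraries labelled WT of their experiment, whereas for Hdac5 they lay below them.

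In C1HR Hdac5 was higher without overlap. Its lowest, median and highest levels were 91.3, 113.0 and 132.2 CPM in C1HR and 61.9, 70.5 and 74.2 CPM in its WT group. The log2 fold change was 0.68 ± 0.05 (SE, edgeR adjusted p = 4.18e-12) and with marrow marker covariates it was 0.46 (adjusted p = 0.0037).

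Hdac7, a class IIa deacetylase best known from endothelium and thymocytes, was higher in C1HR under TMM scaling (ENSMUSG00000022475, chr15:97623095-97674933, minus strand). It lay at 51.5, 60.8 and 67.1 CPM in C1HR and at 43.9, 48.9 and 53.5 CPM in its WT group, with 10 of 12 C1HR libraries above every WT library. Its log2 fold change was 0.31 ± 0.05 (edgeR adjusted p = 2.56e-06), and with totals scaling it turned to -0.10 and passed the other way (adjusted p = 0.0419), while with marrow marker covariates it was 0.11 (adjusted p = 0.474). In libraries labelled DKO it lay at 61.4, 79.5 and 82.4 CPM and in those labelled WT at 45.5, 72.1 and 82.2 CPM. The groups overlapped nearly throughout, with a log2 fold change of 0.12 ± 0.10 (adjusted p = 0.324). The 29 exon bases it shares with Slc48a1, a heme transporter gene, are 0.52% of its own. With totals scaling, and with marrow marker covariates, Hdac7 passed at 0.35 (adjusted p = 0.00255) and 0.51 (adjusted p = 0.038).

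**Figure D4:**
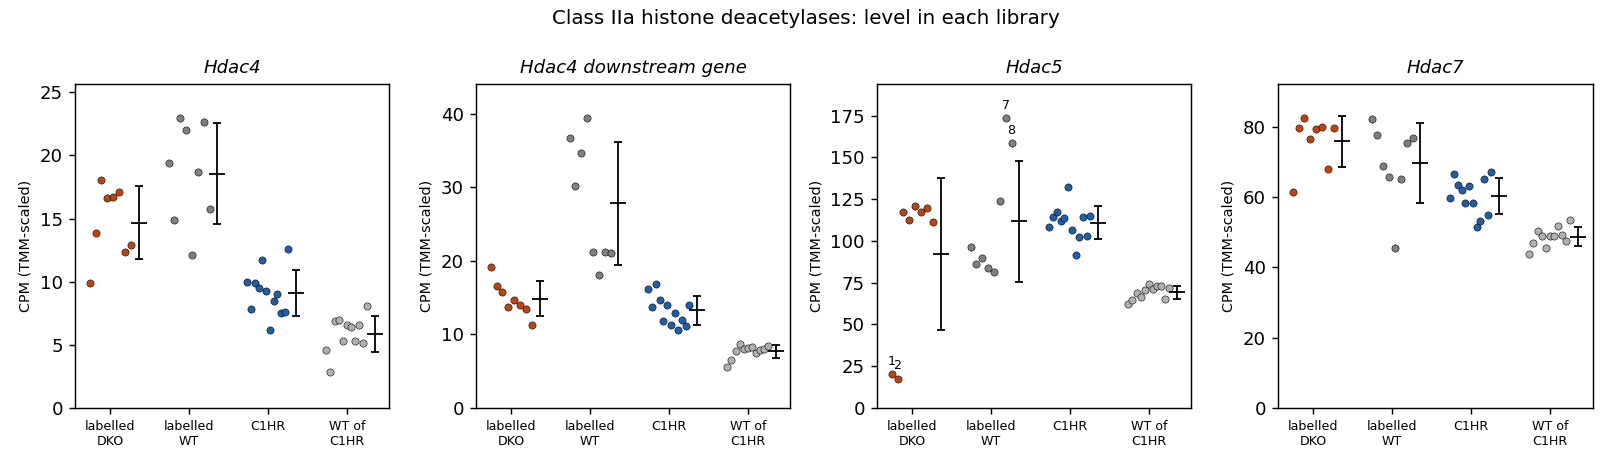
CPM of Hdac4, the single-exon gene downstream of it, Hdac5 and Hdac7 in each library (points, in the order of their numbers) with the mean and SD of each group; the numbers 1, 2, 7 and 8 name libraries of the Sik2/3 experiment. For Hdac5 the libraries labelled DKO 1 and 2 sit at 20.4 and 17.5 CPM, far below the other 6 libraries labelled DKO at 111.1 to 120.7 CPM.

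Levels of different genes were compared as CPM per kilobase of exon bases shared with no other gene. Stk11 had the highest mean level of the 10 genes in all 4 groups, at 29.1 ± 3.54 CPM per kilobase in the 8 libraries labelled DKO and 22.2 ± 1.62 in the 8 labelled WT, and at 17.6 ± 3.90 in the 12 C1HR libraries and 41.1 ± 2.86 in the 11 of its WT group, each with its SD. Crtc1, Crtc3 and Hdac4, taken as its spliced gene alone, had the 3 lowest mean levels in all 4 groups, between 1.49 and 4.68 CPM per kilobase. The single exon downstream of Hdac4 was left out of this order. Its mean level was above that of the spliced gene in every group, from 3.21 CPM per kilobase (WT group of C1HR) to 11.6 (labelled WT). A level for both together was not computed, so the place of Hdac4 holds for the spliced gene only. Among the kinases the order changed with the group. In C1HR it was Sik3 (12.5 ± 2.08 CPM per kilobase), Sik1 (7.01 ± 1.28) and Sik2 (4.44 ± 0.91), and in its WT group it was Sik2 (6.75 ± 0.60), Sik3 (6.21 ± 0.58) and Sik1 (5.25 ± 0.44), although with all exon bases of Sik2 counted its level there was 5.65 CPM per kilobase, below Sik3. In libraries labelled DKO it was Sik3 (12.7 ± 2.12 CPM per kilobase), Sik1 (11.8 ± 2.47) and Sik2 (9.94 ± 2.21), and in those labelled WT it was Sik1 (15 ± 6.02), Sik3 (14.7 ± 3.56) and Sik2 (6.39 ± 1.07). Some neighbours in the order of all 10 did not differ beyond their spread. In libraries labelled WT, Sik1 exceeded Sik3 in 4 of 8 libraries and Hdac5 exceeded Hdac7 in 4 of 8. In libraries labelled DKO, Sik1 exceeded Hdac5 in mean level but in only 2 of 8 libraries, DKO 1 and 2.

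The balance between family members within a library does not depend on scaling. The ratio of Sik3 to Sik2, as CPM per kilobase, had a median of 1.15 in libraries labelled DKO and 2.37 in those labelled WT, and 6 of 8 libraries labelled DKO lay below all labelled WT, DKO 1 and 2 being the exceptions. In C1HR the median ratio was 2.85, against 0.953 in its WT group, and all 12 C1HR libraries lay above all 11 WT libraries. Crtc1 over Crtc2 had a median of 0.173 in libraries labelled DKO and 0.272 in those labelled WT, with 7 of 8 libraries labelled DKO below all labelled WT. It was 0.323 in C1HR and 0.219 in its WT group, with all 12 C1HR libraries above the WT range. Crtc2 was thus the most abundant CRTC transcript per kilobase in every group, and the share of Crtc1 beside it was lower with the DKO label and higher in C1HR. Hdac5 over Hdac7 was 1.14 in C1HR and 0.881 in its WT group, with no overlap, and 0.907 in libraries labelled DKO and 0.957 in those labelled WT, which overlapped. Sik1 over Sik3 was 0.559 in C1HR and 0.855 in its WT group, again with no overlap. These ratios combine levels already tested one by one and carry no test of their own. Cell makeup, for which marker sums differed between the groups, was not taken out of them. With marrow marker covariates the log2 fold changes of Crtc1 and Crtc2 were 0.38 and 0.51 for the DKO label, and 0.60 and 0.14 in C1HR. Those of Sik3 and Sik2 were 0.08 and 0.61 for the DKO label, and 0.89 and -0.18 in C1HR.

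**Figure D5:**
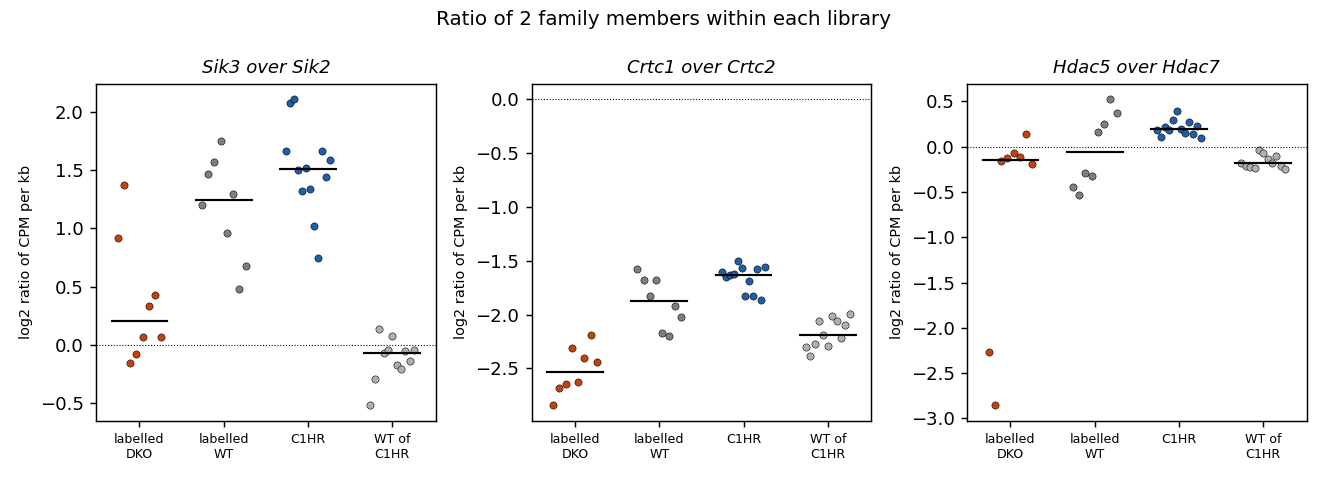
Log2 ratio of CPM per kilobase of Sik3 over Sik2, Crtc1 over Crtc2 and Hdac5 over Hdac7 in each library (points, in the order of their numbers; line: median of the group; dotted: equal levels). All 12 C1HR libraries sit above all 11 of its WT group in each panel, and the libraries labelled DKO 1 and 2 are the 2 highest of their group for Sik3 over Sik2 and the 2 lowest for Hdac5 over Hdac7.

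Of the kinases, Sik2 was most like Nfatc3 across the 39 libraries (r 0.866 of log2 CPM with group means removed), followed by Lmtk2 (0.84) and Tubgcp4 (0.836). Sik3 was most like Zfp46 (0.842), Mkl2 (0.835) and Pitpnm2 (0.822), and Sik1 was most like Irf2bp2 (0.813), Spry1 (0.802) and Vat1 (0.794). These coefficients are descriptions of libraries that share groups, cell makeup and depth.

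The partners of the members moved as follows, in edgeR's quasi-likelihood test. Of all genes tested, 24.1% passed as higher and 30.9% as lower in libraries labelled DKO. In C1HR 43.7% passed as higher and 40.6% as lower. Of the 4 genes for partners of Stk11 in its active complex, Strada and Stradb were higher and Cab39 was lower in libraries labelled DKO, and 4 of 4 were lower in C1HR. None of these 3 passed for the DKO label with neighbouring libraries summed, and neither Strada nor Stradb passed with marrow marker covariates. Stradb, a pseudokinase that binds Stk11, had a median of 48.2 CPM in libraries labelled DKO, with 18.1 CPM in the WT-labelled ones (log2 fold change 1.00 ± 0.27, adjusted p = 0.00481), which turned to -0.15 with marrow marker covariates (adjusted p = 0.655). Cab39l, a scaffold of the complex, had 32.7 CPM in C1HR and 56.0 CPM in its WT group (-0.71 ± 0.07, adjusted p = 4.94e-10). Of 10 tested other kinases that Stk11 switches on, 3 were higher and 1 was lower in libraries labelled DKO, and 5 were higher and 3 lower in C1HR. Nuak1, an AMPK-related kinase, had a median of 77.9 CPM in C1HR and 28.7 CPM in its WT group (1.36 ± 0.07, adjusted p = 1.39e-15), and Nuak2 had 13.9 CPM in libraries labelled DKO, with 7.88 CPM in the WT-labelled ones (0.77 ± 0.15, adjusted p = 0.000494; 0.54 and 0.135 with marrow marker covariates).

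On the substrate side, 3 of 3 tested MEF2 factors, which class IIa deacetylases restrain, were higher in C1HR. Over all genes tested, 43.7% passed as higher and 40.6% as lower there, and 24.1% and 30.9% in libraries labelled DKO. The counts of this paragraph are to be read beside these shares. In libraries labelled DKO against labelled WT, Mef2a, Mef2c and Mef2d had log2 fold changes of -0.15, -0.19 and -0.09 that did not pass (adjusted p = 0.322, 0.279 and 0.505), nor in DESeq2. Mef2c, the MEF2 factor best known in osteocytes, had 266.7, 296.7 and 343.2 CPM as the lowest, median and highest value in C1HR and 120.8, 150.4 and 183.9 CPM in its WT group (0.99 ± 0.06, adjusted p = 1.21e-13), without overlap. Of 5 CREB factors and coactivators, 3 were higher and 1 was lower in libraries labelled DKO, and 1 was higher and 4 were lower in C1HR. Creb1 itself had a median of 60.2 CPM in C1HR and 89.6 CPM in its WT group (-0.55 ± 0.07, adjusted p = 6.13e-08), or -0.15 with marrow marker covariates (adjusted p = 0.486). Other histone deacetylases gave 3 higher of 8 in libraries labelled DKO, and 2 higher and 4 lower in C1HR. Hdac9, the class IIa member not counted among the 10 genes, had a median of 14.1 CPM in libraries labelled DKO, with 4.51 CPM in the WT-labelled ones (1.21 ± 0.27, adjusted p = 0.00159), and was among those lower in C1HR. With marrow marker covariates its DKO value was 0.15 (adjusted p = 0.723) and its C1HR value turned to 0.14 (adjusted p = 0.718). Of the 14-3-3 genes, 1 of 7 was higher and 1 lower in libraries labelled DKO, and 2 of 6 were higher and 3 lower in C1HR. Calcineurin, which removes the phosphates that the salt-inducible kinases put on CRTC proteins, had 3 of 4 subunit genes lower in libraries labelled DKO, and 3 higher and 1 lower in C1HR.

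Upstream of the salt-inducible kinases, of 6 PKA subunit genes, 1 was higher and 5 were lower in libraries labelled DKO, and 4 were higher and 1 was lower in C1HR. The shares of all genes tested were again 24.1% higher and 30.9% lower for the DKO label, and 43.7% and 40.6% in C1HR. Prkar2b had a median of 24.2 CPM in C1HR and 258.1 CPM in its WT group (-2.89 ± 0.28, adjusted p = 1.29e-09; -1.13 with marrow marker covariates), and Prkar1b had 20.6 CPM in C1HR and 5.76 CPM in its WT group (1.87 ± 0.09, adjusted p = 2.14e-15). Of 10 tested genes used as readouts of the pathway, 1 (Sost) was higher and 6 were lower in libraries labelled DKO, and 6 were higher and 2 were lower in C1HR. Sost had a log2 fold change of 2.13 for the DKO label and passed in neither direction in C1HR. Crem, a cyclic AMP-responsive factor, was lower in both. Tnfsf11 had 6.36, 9.96 and 14.1 CPM as the lowest, median and highest value in libraries labelled DKO and 10.3, 35.98 and 47.9 CPM in those labelled WT (-1.71 ± 0.24, adjusted p = 5.56e-05), or -0.77 with marrow marker covariates (adjusted p = 0.131). It had 17.7, 30.2 and 36.4 CPM in C1HR and 5.12, 7.15 and 8.06 CPM in its WT group (2.11 ± 0.11, adjusted p = 3.84e-15), or 1.42 with these covariates, without overlap. The difference of the Tnfsf11 effects, 3.76 ± 0.25 on the log2 scale, passed the edgeR test (adjusted p = 4.28e-16).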

How the data were processed

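Per the submitters' design text, bone RNA was read single-end on a BGISEQ500. The authors mapped reads with STAR to mm9 with Ensembl annotation and counted them per gene with HTSeq 0.6.0, per the design text and the submitters' processing notes, which give neither a STAR version nor an annotation release. The deposited values are whole-number counts per gene for 37583 genes, and 5 tallies of unassigned reads per library were left out of library sizes and tests. Although named CPM in the design text, the values are whole numbers with unequal library totals and were treated as raw counts. Counting took no account of strand, as the names of the deposited count tables state. By the design text, C1HR bones were left unflushed, whereas the labels' protocol says for every library that it was, and it counts 6 WT mice for the Sik2/3 experiment where the labels give 8 libraries; all 39 libraries were used.

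GENCODE vM1 on NCBIM37 (mm9) gave coordinates, exon lengths and overlaps (37168 identifiers matched, 415 did not). Promoter windows came from RefSeq on GRCm38.p6. Groups followed the labels. Each experiment was fitted separately: filterByExpr (minimum count 10, minimum total 15) set the genes, TMM the scaling, and groups were compared with the quasi-likelihood test of edgeR 4.0.16 in R 4.3.3, with robust estimation and Benjamini-Hochberg adjustment over all genes tested. The effects were compared by a contrast across 4 groups fitted together, on 15387 genes. Log2 CPM used a prior count of 2. Alternatives were DESeq2 1.42.0, limma 3.58.1 voom with quality weights, totals scaling, no filter, the replicate number as a block, marrow marker covariates (erythroid, granulocyte, B lineage), 1 fit of 4 groups, and leaving out libraries. Sex read from the counts, summed neighbouring libraries and leaving out DKO 1 and 2 were added after the data were seen. Tests were checked on simulated counts of independent libraries, unlike the neighbouring libraries of the Sik2/3 experiment, which deviated together. Whether neighbouring libraries of the C1HR experiment did so was not checked. Of changes of 1.5-fold, 31.3% were recovered in the Sik2/3 comparison and 77.6% in the C1HR comparison, and of 2-fold changes 68.7% and 97%. A member that did not pass for the DKO label may thus still differ by a small amount. The simulation changed 67 genes 1.5-fold, 67 genes 2-fold and 66 genes 4-fold in each comparison. In the data 55% of genes passed for the DKO label and 84.3% for C1HR, so recovery there may differ from these shares. Summaries used Python 3.11.15 with pandas 2.3.3 and numpy 2.4.6, and figures used matplotlib 3.10.9.

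The members, gene lists and rules were chosen with earlier results of these data known. Named genes were the members, genes overlapping their exons, up to 2 genes of smallest p per pathway list and comparison, and the 3 genes most like each kinase among those with a mean of at least 5 CPM; the search for Hdac5, its neighbours and the downstream Hdac4 exon were added after values were seen. Without molecular identifiers, amplified reads cannot be counted as separate molecules.

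Same-numbered libraries of the groups had correlations of their deviations between -0.26 and 0.31 in the Sik2/3 experiment and between -0.18 and 0.34 in the C1HR experiment, so the numbers were not taken to pair them.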

Additional observations from a re-analysis of the deposited data

Results flagged for a closer look

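Single libraries lay apart from their group, by the gap to the nearest other library over the range of the group, in 3 of 22 sets of a gene row and a group of 8 libraries, where chance gives about 1 in 20. They were the library labelled DKO 2 for Sik3 (124.9 CPM), the library labelled WT 5 for Crtc2 (40.6 CPM) and the same library for Hdac7 (45.5 CPM). WT 5 had the highest erythroid, granulocyte and adipocyte sums of its group, 4995, 16490 and 476 CPM, and the part of these in its member levels was not tested. The paired low values of Hdac5 in DKO 1 and 2 were not found this way, since 1 library is compared at a time.

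The effect of C1HR on its WT and that of the DKO label on its WT differed for 8 members, as C1HR effect less DKO effect on the log2 scale. Of all genes tested 80.2% passed the same contrast, so this count is close to the background. Genotype and experiment cannot be told apart in it. Positive differences were 0.70 for Sik1, 1.16 for Sik3, 1.21 for Crtc1, 0.74 for Crtc3, 0.91 for Hdac4 and 0.90 for Hdac5, and negative ones were -1.30 for Sik2 and -1.69 for Stk11. The single exon downstream of Hdac4 had a difference of 1.63. With totals scaling the differences of Sik1 (0.10), Crtc3 (0.16), Hdac4 (0.33) and Hdac5 (0.33) no longer passed the test.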

How the results depend on the processing

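With marrow marker covariates, 1923 genes and 1 member (Hdac7) passed for the DKO label, against 8514 and 4, and 6228 genes and 5 members for C1HR, against 11787 and 10. Under this fit the DKO values of Sik1 (0.52), Sik3 (0.080), Crtc1 (0.38), Crtc3 (0.31), Dos (0.25), Prkar1b (0.082), Stradb (-0.15) and Ywhab (0.016) changed sign; the cause was not tested. Summing neighbouring libraries, which deviate together, leaves 4 against 4 and gave 5120 genes and 2 members (Sik2 and Stk11). Members passing for the DKO label numbered 8 with voom, where 11047 of 15479 genes passed, and 5 with sex as a covariate (Sik1 gained), where 8468 did. Without WT 5 and 6 they numbered 7, where 10085 of 15660 genes passed. Without DKO 1 and 2 they numbered 2 (again Sik2 and Stk11), where 7981 of 15678 genes passed, and Hdac5 turned to 0.063. Leaving out 1 library at a time gave 7845 to 9390 genes and 3 to 6 members for the DKO label, and 11604 to 11821 genes and 10 to 10 members for C1HR.

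Totals scaling moved the median of all genes from -0.09 to 0.12 for the DKO label, from 0.05 to -0.35 for C1HR and from 0.10 to -0.44 for their difference. It turned Sik3 (0.0071), Crtc3 (0.087) and Ywhab (0.010) for the DKO label, Crtc2 (-0.043), Hdac7 (-0.10) and Ywhag (-0.22) for C1HR, and the differences of Crtc2 (-0.54) and Hdac7 (-0.46). The higher and lower genes called were 5270 and 2697 under it for the DKO label, against 3726 and 4788, and 4321 and 7698 for C1HR, against 6109 and 5678. Members split 2 higher and 4 lower for the difference under it, against 6 and 2. All genes called split 4495 higher and 7917 lower, against 6470 and 5866. DESeq2 turned the Crtc2 difference to -0.014. With all exon bases counted, the mean log2 ratio of Sik3 to Sik2 in the WT group of C1HR turned to 0.13.

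With the replicate number as a block, 8422 genes passed for the DKO label and 11616 for C1HR. Under the block Crtc1 no longer passed for the DKO label (-0.35, adjusted p = 0.072), and the block changed no other member's call. The 37 reads at the low end of Hdac4 set the counting precision of the least expressed member.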
